A study of Camelina sativa with 12 samples.

Results

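Roots of *Camelina sativa* DH55 were grown under salt in soil treated with the bacterium *Pseudomonas migulae* 8R6. They were compared with roots of the same wild-type line grown under salt in soil given MgSO4 solution without bacteria. The comparison was between 6 of the 12 RNA-seq libraries of the series, 3 biological replicates of 8R6 roots and 3 of control roots. Of the 49932 genes in the deposited matrix, 48099 reached 1 CPM (the count of a gene scaled to library size) in at least 3 of the 12 libraries and were tested.

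For the 8R6 roots, the soil received 2 ml of *P. migulae* 8R6, a root endophyte, at an optical density of 0.5 in 0.03 M MgSO4, at sowing and again a week later. The control roots received 2 ml of 0.03 M MgSO4 without bacteria at the same times. All plants were watered with 192 mM NaCl (15 dS/m) from day 7 after sowing, and roots were collected at 28 days of age, after 21 days of salt. The remaining 6 libraries came from DH55 plants under the same salt treatment and without bacteria that expressed *acdS* of *Pseudomonas* sp. UW4, 3 from a line with the broadly active CaMV 35S promoter (35S::acdS) and 3 from a line with the root-specific *rolD* promoter of *Agrobacterium rhizogenes* (rolD::acdS). Each transgenic group was a homozygous line with 1 insert. Every library is from salt-treated roots, so the values say nothing of a response to salt. Strain 8R6 carries *acdS*, and its *acdS* mutant 8R6M was not sequenced here, so the presence of the bacterium and its ACC deaminase activity cannot be told apart.

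Ethylene is made from methionine by way of 1-aminocyclopropane-1-carboxylate (ACC). The *acdS* gene encodes ACC deaminase, which cleaves ACC to α-ketobutyrate and ammonia, so that bacteria with this enzyme at the root draw on the pool from which a stressed plant makes ethylene. Ethylene acts through transcription factors of the ERF family, whose members respond to many stresses besides ethylene, and salt stress also raises abscisic acid (ABA), which is made by way of 9-cis-epoxycarotenoid dioxygenases such as NCED3. Gene roles given here are those known from Arabidopsis, whose orthologs gave the genes their names.

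The study verified its sequencing with droplet digital PCR assays, and the assays for 2 of the genes described here are shown because both genes were listed at 0 CPM in all 3 libraries of 8R6 roots. The forward primer, probe and reverse primer are given 5′ to 3′ in lower case with no base singled out. Csa20g044800 on chromosome 20 encodes myrosinase-binding protein 2, and Csa07g039380 on chromosome 7 encodes a Kunitz family trypsin and protease inhibitor.
Csa20g044800 forward: gaatgcatcatatctgttggtggaag
Csa20g044800 probe: cagttctgatcaaatcgttgttcaaac
Csa20g044800 reverse: gcgtccatggaatccaagaagctttcctc
Csa07g039380 forward: ccgccattacatttcccttctgt
Csa07g039380 probe: cccaaacactccttccgtaccag
Csa07g039380 reverse: cctctgtttatatgagaagctaaccgg

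The matrix held whole numbers only, so 1 CPM was the smallest step and a gene listed at 0 was below it. The values of a library summed to between 887898 and 947036 over the 6 libraries, and 47332 to 47572 genes were above 0. Read depth is unknown. CPM is not corrected for gene length, so levels were compared between libraries and not between genes. The 4 chlorophyll-binding genes used as markers of shoot tissue summed to 3 CPM in every 8R6 library and 4 CPM in every control library. The 6 root markers, orthologs of the stele potassium channel SKOR and genes of the Casparian strip membrane family, summed to 83, 55 and 65 CPM in 8R6 roots and 85, 88 and 74 CPM in control roots. Across all tested genes, 8R6 replicate 1 was closest to control replicate 3 (r = 0.976) and 8R6 replicate 2 to control replicate 2 (r = 0.967). Only 8R6 replicate 3 was closest to a library of its own group, 8R6 replicate 2 (r = 0.961). These correlations are across genes, which are not independent replicates.

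No gene passed the test between 8R6 and control roots. Genes were tested with limma on log2(CPM + 0.5) in a fit of all 12 libraries, so the transgenic lines also entered the estimate of the spread. A call needed an adjusted p (Benjamini-Hochberg) no greater than 0.05 together with a log2 fold change beyond 0.8 in either direction. The count of called genes was 0 higher and 0 lower (0% of those tested), and the smallest adjusted p was 0.353. At an unadjusted p under 0.05, 1236 genes (2.57%) had higher and 1368 genes (2.84%) had lower means in 8R6 roots, 5.41% in all, where 5% of the tested genes would be 2405 genes. These counts were 746 and 716 without control replicate 1, 2520 and 3123 without 8R6 replicate 1, and 1868 and 1764 without control replicate 3. Calls appeared without 8R6 replicate 1 (1 higher and 3 lower) and without rolD::acdS replicate 1 (3 lower). The 3 genes called without rolD::acdS replicate 1 had the same value in all 3 libraries of each group compared. With 3 libraries against 3, an exact permutation test of 1 gene cannot give a two-sided p below 0.1. When only these 6 libraries were fitted, 7 genes were called higher and 17 lower. All 24 of them had the same value in all 3 libraries of each group, and 0 of them were among the genes that the study lists for this treatment. Words such as higher and lower therefore refer below to the means of these libraries, and counts at an unadjusted p are given as a description. That no gene passed does not show that the groups were alike.

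Differences in size depended on the level of the gene. The log2 fold change was beyond 0.8 for 426 genes upward (0.886%) and 417 downward (0.867%), with a median of 0 over all tested genes. Of the 4039 genes with a mean under 2 CPM, 9.09% were beyond 0.8, against 0.767% of the 10305 genes with a mean of 20 to 100 CPM. The median standard error of the log2 fold change was 0.361 for the first of these groups and 0.133 for the second. The libraries of 8R6 and control roots did not overlap for 936 genes upward (1.95%) and 1063 downward (2.21%). Both conditions together held for 94 genes upward (0.195%) and 87 downward (0.181%).

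**Figure D1:**
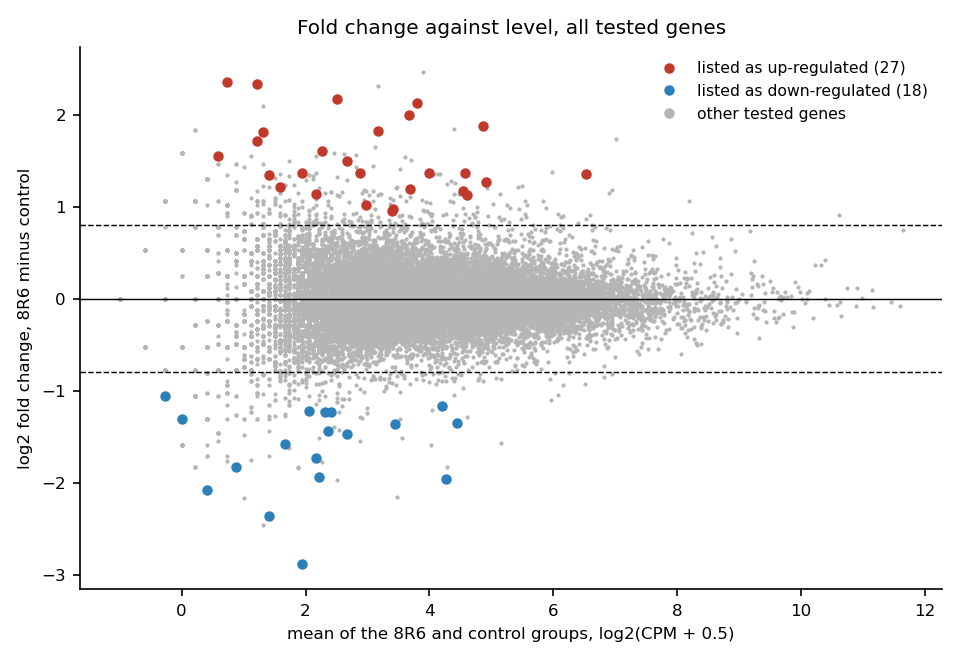
Each point is a tested gene, with the mean of the 8R6 and control groups as log2(CPM + 0.5) on the x axis and the log2 fold change of 8R6 minus control on the y axis. Dashed lines mark 0.8 in both directions, and coloured points are the 27 tested genes that the study lists as up-regulated and the 18 that it lists as down-regulated in 8R6 roots, of which 11 and 8 had a mean under 5 CPM.

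The study lists 53 genes for this treatment, chosen on these libraries, so their direction is no independent evidence. Of the 31 listed as up-regulated, 27 were tested, with log2 fold changes of 0.95 to 2.36 (median 1.37). Of those 27, 24 were at an unadjusted p under 0.05, against 2.57% of all genes, and 23 did not overlap between the groups, against 1.95%. Of the 22 listed as down-regulated, 18 were tested, with log2 fold changes of −2.89 to −1.06 (median −1.45), 15 at an unadjusted p under 0.05, against 2.84% of all genes, and 13 without overlap, against 2.21%. A fitted value rests on the pseudocount where a group is listed at 0 throughout, as control roots were for 1 of the 27 and 8R6 roots for 5 of the 18. Without those genes the log2 fold changes were 0.95 to 2.33 (median 1.37) upward and −2.36 to −1.16 (median −1.43) downward. The other 8 listed genes were not analysed here. None of the 45 was called, and the adjusted p was 0.874 for all but 3 of them, AAP4 (0.842), CRK14 (0.353) and Csa18g026120 (0.883). The count of 24 was 17 without 8R6 replicate 3 or without control replicate 2, and the count of 15 was 9 without 8R6 replicate 1, control replicate 1 or control replicate 2.

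A common pattern was seen in 11 genes that respond rapidly to stress in Arabidopsis, among them ERF, zinc finger, calcium-binding and RNA decay genes, all of which the study lists as up-regulated. Ethylene response factor genes came first among them. ERF105 on chromosome 11 (Csa11g082690) had 14, 43 and 84 CPM in 8R6 roots and 12, 7 and 11 CPM in control roots, with a log2 fold change of 1.88 ± 0.75 (SE). Its homeolog on chromosome 18 (Csa18g022000) had 13, 36 and 57 CPM in 8R6 roots and 12, 10 and 12 CPM in control roots (1.37 ± 0.58). In both, 8R6 replicate 1 stood just above the highest control library, and 8R6 replicates 2 and 3 stood well clear of it. An ERF105-like gene (Csa09g049980) had 5, 20 and 45 CPM in 8R6 roots and 5, 2 and 4 CPM in control roots (2.12 ± 0.96), with 8R6 replicate 1 level with the highest control library.

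ERF106 (Csa20g010010), another ERF gene, differed from these in that its replicates were close together. It had 11, 17 and 13 CPM in 8R6 roots and 6, 6 and 8 CPM in control roots, with a log2 fold change of 0.97 ± 0.20. All 3 libraries of 8R6 roots were above all 9 others of the series, which had 5 to 8 CPM. ERF6 (Csa11g031180) was near the smallest step, at 4, 3 and 2 CPM in 8R6 roots and 1, 0 and 1 CPM in control roots. Not every AP2 domain gene had a higher mean. RAP2.6 (Csa03g046520) had 3, 1 and 2 CPM in 8R6 roots and 12, 2 and 4 CPM in control roots, and TOE3 (Csa18g040290), a repressor of flowering, had 7, 6 and 6 CPM in 8R6 roots and 10, 8 and 9 CPM in control roots (−0.47 ± 0.17). Of the 10 tested ERF and AP2 genes, 4 had higher means at an unadjusted p under 0.05, against 2.57% of all genes. A lower mean at that p was found for 1, against 2.84%, and the median log2 fold change was 0.36. All 10 are on the study's lists, with 5 of them listed for 8R6. The count of 4 was 1 without control replicate 2 and 2 without 8R6 replicate 2, 8R6 replicate 3 or control replicate 3. TOE3 lost its place without 8R6 replicate 2, 8R6 replicate 3 or control replicate 1, and the count lower was 2 without control replicate 2.

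ZAT10 (Csa14g035300), a zinc finger repressor induced by salt, cold and drought, had 24, 47 and 56 CPM in 8R6 roots and 18, 12 and 20 CPM in control roots (1.26 ± 0.55). A homolog of CCR4-associated factor 1 (Csa09g034080), which shortens the poly(A) tails of mRNAs, had 4, 10 and 13 CPM in 8R6 roots and 2, 2 and 4 CPM in control roots (1.50 ± 0.66). DIC1 (Csa07g052590), a mitochondrial dicarboxylate carrier also known as UCP5, had 5, 10 and 16 CPM in 8R6 roots and 3, 3 and 4 CPM in control roots (1.37 ± 0.48). In all 3 genes the order of the 8R6 libraries was that of ERF105, with replicate 1 lowest and replicate 3 highest. Of the 3 EF-hand calcium-binding homeologs, Csa12g024640 had 10, 18 and 25 CPM in 8R6 roots and 7, 6 and 8 CPM in control roots, and the others had log2 fold changes of 1.82 and 1.36.

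Summed over the 11 genes, the level was 105, 245 and 366 CPM in 8R6 roots, 353, 59 and 97 CPM in libraries of 35S::acdS roots, 106, 57 and 70 CPM in rolD::acdS roots, and 79, 56 and 84 CPM in control roots. The 8R6 libraries were above the control libraries. 35S::acdS replicate 1 was above 8R6 replicates 1 and 2 and below replicate 3, and rolD::acdS replicate 1 was just above 8R6 replicate 1. In 10 of the 11 genes 8R6 replicate 1 was the lowest of its group. In 10 of the 11, 35S::acdS replicate 1 was above all control libraries, and in 5 it was above all libraries of 8R6 roots. Among the 16 other tested genes listed as up-regulated, these counts were 10, 12 and 1. The low 8R6 replicate 1 and the high 35S::acdS replicate 1 were thus also seen among other listed genes. These orders of libraries were not counted over all tested genes, so the counts describe the listed genes only. ERF106 was the only 1 of the 11 for which all 8R6 libraries were above all 9 other libraries. At an unadjusted p under 0.05, 8 of the 11 had higher means in 8R6 than in control roots, against 2.57% of all genes, and 0 had lower means, against 2.84%. The study chose the 11 as up-regulated on these libraries, and the median log2 fold change was 1.37. The count of 8 was 2 without 8R6 replicate 3 or control replicate 2, 3 without 8R6 replicate 2, 4 without control replicate 1, and 5 without control replicate 3, rolD::acdS replicate 2 or rolD::acdS replicate 3. Against 35S::acdS roots the median log2 fold change of the 11 was 0.64, with 1 higher at an unadjusted p under 0.05, against 6.52% of all genes, and against rolD::acdS roots it was 1.46, with 9, against 6.79%.

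**Figure D2:**
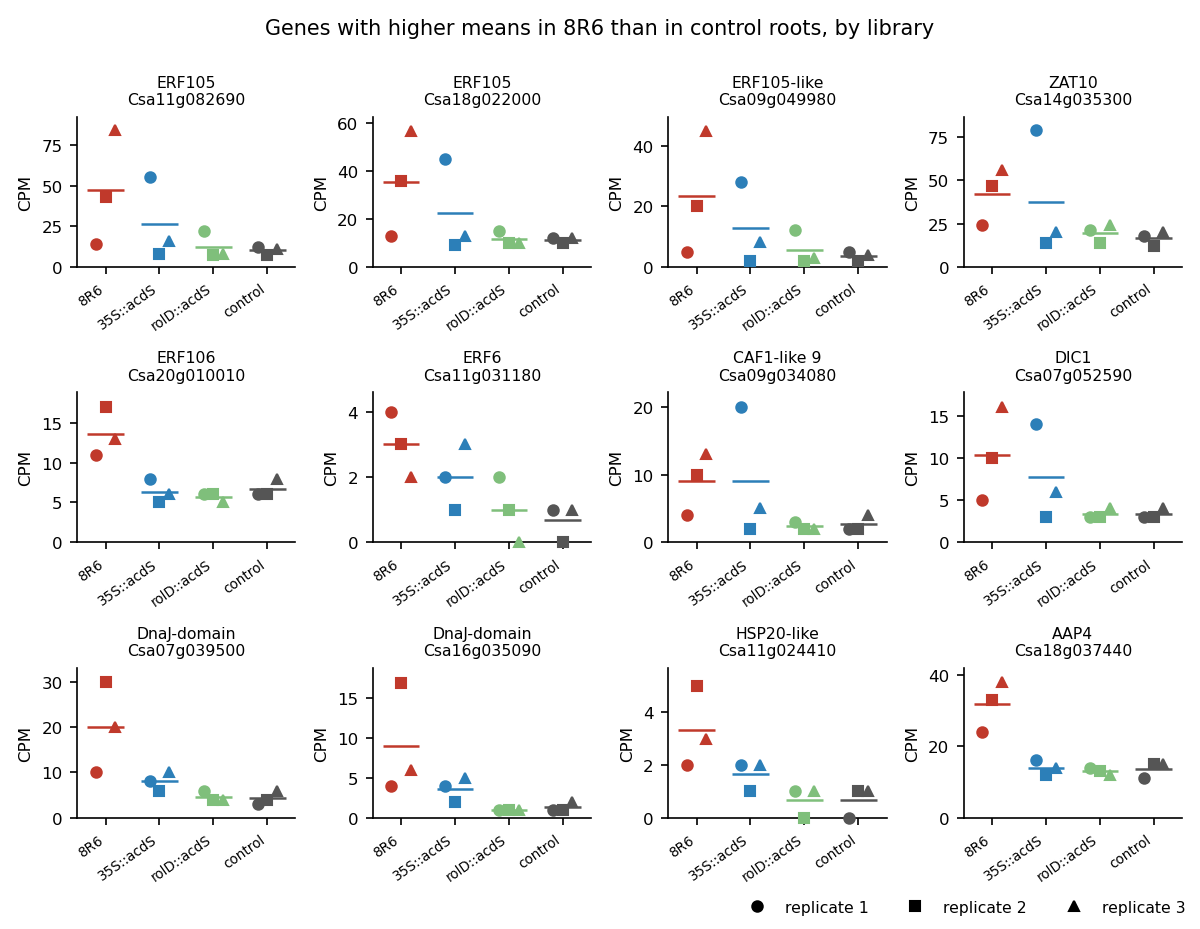
CPM of 12 genes in each library, by group, with a line at the group mean of 3 libraries and the marker shape giving the replicate number. In ERF105 (Csa11g082690), ZAT10 and DIC1 the lowest 8R6 library (14, 24 and 5 CPM) is close to the control libraries and 35S::acdS replicate 1 (55, 79 and 14 CPM) is high, whereas in AAP4 and ERF106 the 3 libraries of 8R6 roots lie above all others.

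Among chaperone genes, 3 that the study lists as up-regulated had higher means in 8R6 roots. The gene for a DnaJ domain protein on chromosome 7 (Csa07g039500), a partner of heat shock proteins, had 10, 30 and 20 CPM in 8R6 roots and 3, 4 and 6 CPM in control roots, with a log2 fold change of 2.00 ± 0.37. Its homeolog on chromosome 16 (Csa16g035090) had 4, 17 and 6 CPM in 8R6 roots and 1, 1 and 2 CPM in control roots (2.17 ± 0.46). In both, replicate 2 was the highest of the 8R6 libraries, and the groups did not overlap. An HSP20-like gene (Csa11g024410) had 2, 5 and 3 CPM in 8R6 roots and 0, 1 and 1 CPM in control roots. Of the 6 tested chaperone genes these 3 had higher means at an unadjusted p under 0.05, against 2.57% of all genes. The study chose these 3 on these libraries. The count was 3 or 4 whichever library was left out. The log2 fold changes of these 3 then lay between 1.28 and 2.58. A GrpE co-chaperone gene (Csa09g053100) had a lower mean at that p, as did 2.84% of all genes. It had 5, 4 and 4 CPM in 8R6 roots and 6, 7 and 6 CPM in control roots (−0.50 ± 0.20). It lost its place without 8R6 replicate 2, 8R6 replicate 3 or control replicate 2. The other 2 had log2 fold changes of 0.02 and 0.37, and the median of the 6 was 1.09. The DnaJ gene Csa07g039500 had a log2 fold change of 1.17 ± 0.37 against 35S::acdS roots and 1.88 ± 0.37 against rolD::acdS roots.

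A pair of α-dioxygenase homeologs, which start the oxidation of fatty acids to oxylipins, was at the lower end of the scale. Csa15g001040 had 3, 5 and 2 CPM in 8R6 roots and 0, 0 and 1 CPM in control roots. Csa01g001030 had 2, 4 and 1 CPM in 8R6 roots and was listed at 0 in all control libraries. Both were at 0 in 35S::acdS replicate 2 and at 1 to 3 CPM in its replicates 1 and 3. Of the 15 tested oxylipin and jasmonate genes only these 2 had higher means at an unadjusted p under 0.05, against 2.57% of all genes. The study lists both as up-regulated. Lower means at that p were found for 0 of the 15, against 2.84%, and the median was −0.11. OPR2 (Csa16g040840), a 12-oxophytodienoate reductase, had 25, 20 and 20 CPM in 8R6 roots and 9, 11 and 20 CPM in control roots, where control replicate 3 equalled the lowest libraries of 8R6 roots.

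The genes of tryptophan and camalexin synthesis had close replicates. ASA1 (Csa20g007990), the α subunit of anthranilate synthase at the entry to tryptophan synthesis, had 13, 15 and 12 CPM in 8R6 roots and 6, 6 and 8 CPM in control roots, with a log2 fold change of 0.95 ± 0.22. PAD3 (Csa06g006620), the cytochrome P450 of the last step of camalexin synthesis, had 3, 4 and 3 CPM in 8R6 roots and 1 CPM in every control library (1.34 ± 0.46). Its homeolog Csa09g011480 had 6, 5 and 3 CPM in 8R6 roots and 4, 3 and 4 CPM in control roots, which overlapped. ASA1 had 14, 7 and 11 CPM in libraries of 35S::acdS roots, against 11, 9 and 9 CPM in rolD::acdS roots, which overlapped with 8R6 roots only in 35S::acdS replicate 1. The first PAD3 gene had 1, 0 and 1 CPM in libraries of 35S::acdS roots, level with or below control roots, and 4, 1 and 3 CPM in rolD::acdS roots, which overlapped with 8R6 roots.

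Among cytochrome P450 genes as a whole the median log2 fold change was 0.06. The study lists 3 of the 18 tested for 8R6. At an unadjusted p under 0.05, 0 of the 18 had lower means, against 2.84% of all genes, and 4 had higher means, against 2.57%. Besides PAD3 these were a CYP71B2-like gene (Csa17g018400) with 6, 4 and 5 CPM in 8R6 roots and 1, 2 and 2 CPM in control roots, a CYP71 gene (Csa05g031780) with 6, 6 and 5 CPM in 8R6 roots and 2, 2 and 3 CPM in control roots, and CYP72A10 (Csa19g021290) with 7, 6 and 5 CPM in 8R6 roots and 5, 3 and 4 CPM in control roots. MAM3 (Csa08g017380), which lengthens the side chain of methionine-derived glucosinolates, had 8, 15 and 25 CPM in 8R6 roots and 2, 8 and 8 CPM in control roots, and was the only 1 of 5 glucosinolate synthesis genes at an unadjusted p under 0.05. Its groups met at 8 CPM, and it lost its place without 8R6 replicate 2, 8R6 replicate 3, control replicate 1, 35S::acdS replicate 1, 35S::acdS replicate 2 or rolD::acdS replicate 2.

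Several other listed genes had higher means in 8R6 roots. AAP4 (Csa18g037440), an amino acid permease, had 24, 33 and 38 CPM in 8R6 roots and 11, 15 and 15 CPM in control roots, with a log2 fold change of 1.17 ± 0.18. Its level was 11 to 16 CPM in all 9 libraries without bacteria. MIPS3 (Csa20g015440), which makes inositol phosphate from glucose 6-phosphate, had 1.60 ± 0.30 against control roots and 0.12 ± 0.30 against 35S::acdS roots. The MIPS2 homeologs had lower means in 8R6 roots, with 4, 10 and 15 CPM in 8R6 roots and 16, 11 and 16 CPM in control roots for Csa07g052330, and they overlapped. A DSBA oxidoreductase of the thioredoxin superfamily (Csa11g054000) had 100, 143 and 148 CPM in 8R6 roots and 38, 38 and 86 CPM in control roots (1.35 ± 0.28), with control replicate 3 higher than its group. A germin-like gene (Csa10g045180) had 3, 4 and 4 CPM in 8R6 roots and 1, 1 and 2 CPM in control roots, and a basic secretory protein gene of the defence response (Csa15g071190) had 8, 11 and 11 CPM in 8R6 roots and 4, 5 and 5 CPM in control roots (1.02 ± 0.25). A gibberellin-regulated gene (Csa13g017740) had 20, 38 and 42 CPM in 8R6 roots and 11, 14 and 19 CPM in control roots (1.12 ± 0.31).

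Genes of ABA synthesis and perception differed in direction. NCED3 (Csa19g021150) had 3, 2 and 3 CPM in 8R6 roots and 9, 7 and 5 CPM in control roots, with a log2 fold change of −1.23 ± 0.29. All 3 libraries of 8R6 roots were below all 9 other libraries, which had 4 to 11 CPM. The ABA receptor gene PYL6 (Csa05g012440) had 1, 2 and 2 CPM in 8R6 roots and 0, 0 and 1 CPM in control roots, a difference of about the smallest step, which was at an unadjusted p under 0.05 only with 8R6 replicates 2 and 3 and control replicates 1 and 2 all in the fit. ABCG21 (Csa06g005130), an ABC transporter, had 1 CPM in every library of 8R6 roots and 5, 6 and 2 CPM in control roots (−1.58 ± 0.41). A MATE efflux gene, DETOXIFICATION 48 (Csa16g018340), had 2 CPM in every library of 8R6 roots and 5, 5 and 6 CPM in control roots (−1.22 ± 0.22), and 3 to 6 CPM in the transgenic lines.

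Some defence genes had lower means in 8R6 roots, and in the 3 given first control replicate 3 was the lowest control library. The basic chitinase gene Csa15g016370 had 6, 5 and 8 CPM in 8R6 roots and 54, 28 and 11 CPM in control roots, with a log2 fold change of −1.96 ± 0.77. Myrosinase-binding protein 2 (Csa20g044800) was listed at 0 in 8R6 roots and at 7, 13 and 0 CPM in control roots. The Kunitz inhibitor gene (Csa07g039380) was listed at 0 in 8R6 roots and at 1, 7 and 0 CPM in control roots. For these last 2 genes control replicate 3 was level with the 8R6 roots. The genes also varied within rolD::acdS roots, from 8 to 96 CPM for the basic chitinase and from 3 to 27 CPM for myrosinase-binding protein 2.

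Control replicate 3 was also the lowest control library in 3 genes for thionins, small antimicrobial peptides. The thionin gene Csa13g048920 had 1, 2 and 1 CPM in 8R6 roots and 9, 9 and 3 CPM in control roots (−1.94 ± 0.45). Csa10g044500 had 0, 1 and 0 CPM in 8R6 roots and 4, 7 and 1 CPM in control roots, and Csa08g016070 was listed at 0 in 8R6 roots and at 7, 5 and 0 CPM in control roots. Of the 11 tested thionin and defensin genes, the study lists 3 for 8R6. Lower means at an unadjusted p under 0.05 were found for 3 of the 11, against 2.84% of all genes. Higher means were found for 0, against 2.57%, and the median log2 fold change was −0.53. The count of lower means was 1 without 8R6 replicate 1, 8R6 replicate 3, control replicate 1 or control replicate 2. It was 5 without control replicate 3. In Csa01g012200, a thionin gene listed for rolD::acdS, the groups overlapped, with 16, 20 and 15 CPM in 8R6 roots and 24, 28 and 13 CPM in control roots.

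Of the 13 other defence genes tested, 6 had lower means at an unadjusted p under 0.05, against 2.84% of all genes. The germin-like and basic secretory protein genes were the 2 with higher means, against 2.57%. The study lists 6 of the 13 for 8R6, these 2 among them. The median was −0.86. The count of lower means was 2 without 8R6 replicate 1, 8R6 replicate 2 or control replicate 2. It was 3 without control replicate 1 and 8 without control replicate 3. A further chitinase gene (Csa05g006780) was listed at 0 in every library of 8R6 and 35S::acdS roots, against 2, 2 and 1 CPM in control roots (adjusted p = 0.353, limma). CRK14 (Csa12g033440), a cysteine-rich receptor-like kinase, was listed at 0 in 8R6 roots and at 2, 2 and 1 CPM in control roots (adjusted p = 0.353, limma), and at 1 or 2 CPM in every transgenic library. These were the smallest adjusted p values of the comparison. A legume lectin gene (Csa08g061240) had 2, 2 and 3 CPM in 8R6 roots and 4, 11 and 5 CPM in control roots, and the β-1,3-glucanase gene BG1 on chromosome 6 (Csa06g033000) had 12, 13 and 13 CPM in 8R6 roots and 17, 57 and 13 CPM in control roots, with 1 control library far above its group. WRKY51 (Csa02g073920), a regulator of salicylic and jasmonic acid responses, had 7, 8 and 5 CPM in 8R6 roots and 10, 11 and 11 CPM in control roots (−0.66 ± 0.29), and was the only 1 of 7 salicylic acid genes at an unadjusted p under 0.05. It was no longer there in 9 of the 12 fits that each left out 1 library.

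**Figure D3:**
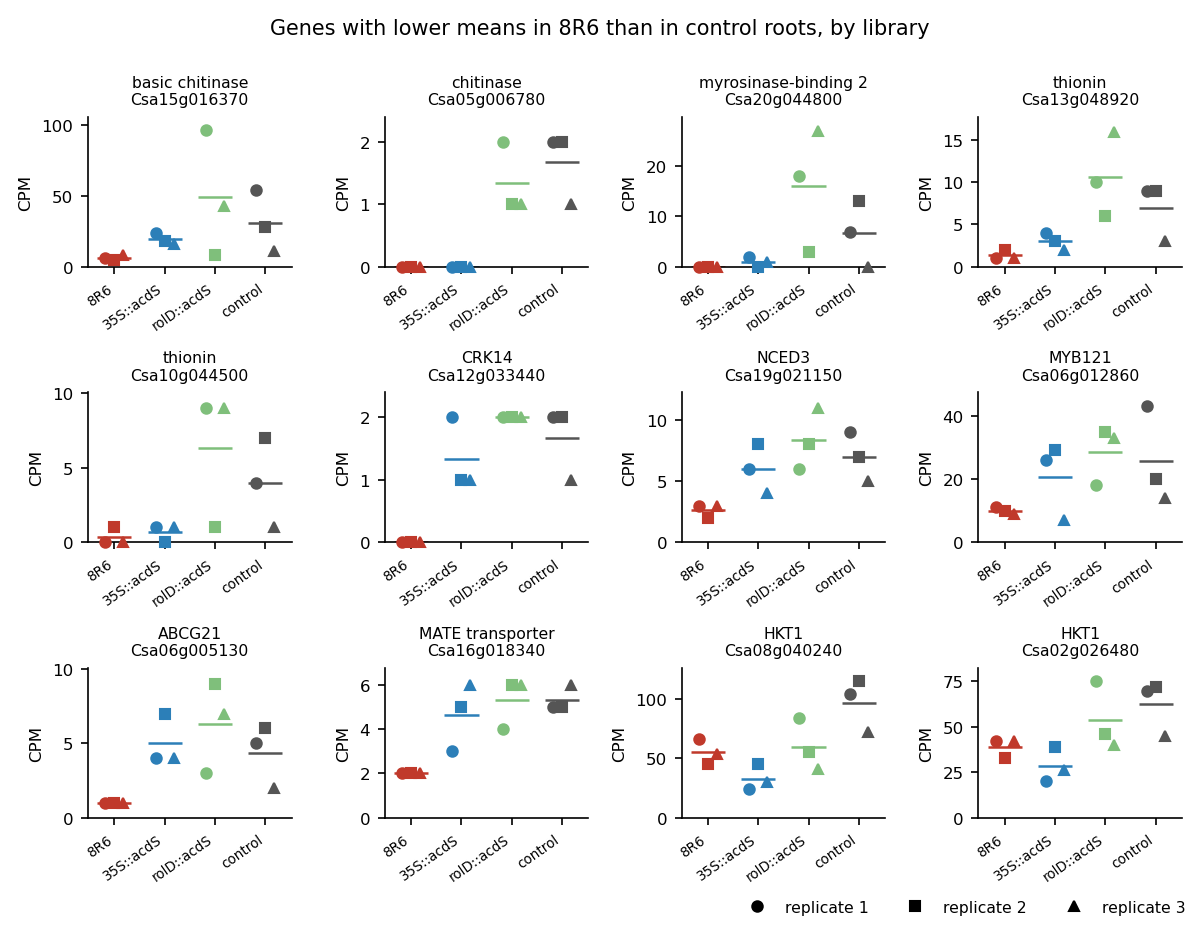
CPM of 12 genes in each library, by group, with a line at the group mean of 3 libraries and the marker shape giving the replicate number. Control replicate 3 is the lowest control library in most panels, with 11 CPM for the basic chitinase and 0 CPM for myrosinase-binding protein 2, and in NCED3, CRK14, ABCG21 and the MATE transporter the 3 libraries of 8R6 roots, at 2 to 3, 0, 1 and 2 CPM, lie below all 9 others.

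Across the 18 tested genes listed as down-regulated, control replicate 3 was the lowest of its group in 15, and 5 genes were listed at 0 in all 8R6 libraries. How often control replicate 3 was lowest over all tested genes was not counted. In 4 of the 18, all 8R6 libraries were below all 9 other libraries, as in 0.482% of all tested genes. In 4 of the 27 listed as up-regulated they were above all 9, as in 0.499%. The study chose both sets on these libraries. Other listed genes with lower means included MYB121 (Csa06g012860), a MYB transcription factor (−1.16 ± 0.52). It had 11, 10 and 9 CPM in 8R6 roots and 43, 20 and 14 CPM in control roots. A short-chain dehydrogenase (Csa09g099440) had 10, 11 and 13 CPM in 8R6 roots and 42, 34 and 18 CPM in control roots (−1.35 ± 0.28). A DUF506 gene (Csa15g082290) had 1, 1 and 3 CPM in 8R6 roots and 8, 7 and 4 CPM in control roots (−1.73 ± 0.35). The carbonic anhydrase gene ACA7 (Csa03g011520) had 1, 4 and 4 CPM in 8R6 roots and 9, 12 and 5 CPM in control roots. With 1 library at a time left out, Csa18g026120 had log2 fold changes of −1.906 to −0.932. Those of the chlorophyllase 1 gene Csa14g024950 ran from −1.585 without control replicate 3 to −0.7925 without control replicate 1. KAT1 (Csa11g065760), described below, had the same −1.585 from 0 CPM in 8R6 roots and 1 CPM in every control library. Values of this size can thus arise from the smallest step. The dehydrogenase had 9, 12 and 9 CPM in libraries of 35S::acdS roots, level with the 8R6 roots.

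The sodium transporter HKT1, which takes Na+ back from the xylem in roots, was listed by the study for lower levels in 35S::acdS roots and not for 8R6. Csa08g040240 had 66, 45 and 54 CPM in 8R6 roots and 104, 115 and 72 CPM in control roots, with a log2 fold change of −0.80 ± 0.30. Csa02g026480 had 42, 33 and 42 CPM in 8R6 roots and 70, 72 and 45 CPM in control roots (−0.65 ± 0.29). Neither pair of groups overlapped, and control replicate 3 was again the lowest control library. In 35S::acdS roots these genes had 24, 45 and 30 CPM and 20, 39 and 26 CPM. The potassium channel gene KAT1 (Csa11g065760) was listed at 0 in 8R6 and 35S::acdS roots, against 1 CPM in every control library. That is a difference of the smallest step, with equal values within each group. The HKT1 genes and KAT1 were the 3 of 7 tested potassium and sodium transport genes lower at an unadjusted p under 0.05, against 2.84% of all genes. The median log2 fold change of the 7 was −0.60. The count of 3 was 1 without 8R6 replicate 2, 8R6 replicate 3, control replicate 1 or control replicate 2. The root marker sum given above, of which the 3 SKOR homeologs are also among these 7 genes, was lower in 8R6 replicates 2 and 3 than in any control library and lower again in 35S::acdS roots, at 28, 48 and 39 CPM, and its part in these differences was not tested. The study lists the 3 SKOR homeologs as down-regulated in 35S::acdS roots. In whole roots, fewer cells of a type and less RNA per cell cannot be told apart. Galactinol synthase 4 (Csa07g061680), of the raffinose pathway, had 25, 20 and 22 CPM in 8R6 roots and 42, 44 and 25 CPM in control roots (−0.68 ± 0.24), where control replicate 3 equalled the highest library of 8R6 roots.

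**Figure D4:**
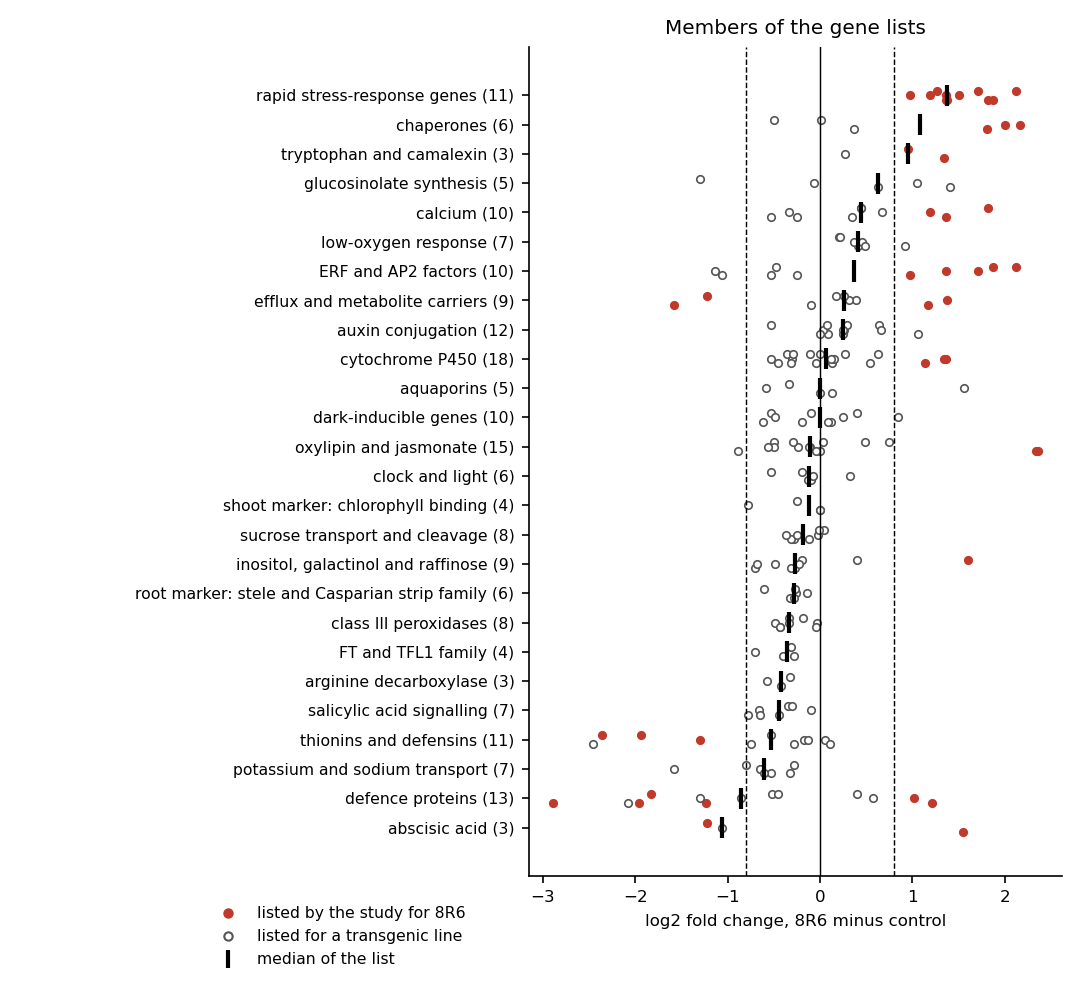
Log2 fold change of 8R6 minus control for each tested member of 26 gene lists, with the number of members in parentheses and a bar at the median of the list; dashed lines mark 0.8 in both directions. Filled points are genes that the study lists for 8R6, which lie outside the dashed lines by that choice, and the medians run from 1.37 for the rapid stress-response genes to −1.06 for the 3 ABA genes.

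The 10 dark-inducible genes, listed by the study for the transgenic lines and activated under sugar starvation, summed to 79, 70 and 40 CPM in 8R6 roots, 335, 113 and 144 CPM in libraries of 35S::acdS roots, 137, 206 and 155 CPM in rolD::acdS roots, and 64, 40 and 68 CPM in control roots. Against control roots 0 of the 10 were at an unadjusted p under 0.05. Against 35S::acdS roots 8 had lower means in 8R6 roots at that p, against 5.53% of all genes, and against rolD::acdS roots 7 did, against 6.16%. DIN2 (Csa05g091890), a β-glucosidase, had 8, 8 and 3 CPM in 8R6 roots, 57, 24 and 21 CPM in libraries of 35S::acdS roots, 17, 52 and 35 CPM in rolD::acdS roots, and 10, 4 and 6 CPM in control roots. The study chose these genes for being up-regulated in the lines, so their direction is not independent evidence, and none was called for 8R6 against either line.

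The 7 low-oxygen response genes had higher means in 8R6 than in rolD::acdS roots, whereas control roots overlapped with 8R6 roots. LBD41 on chromosome 15 (Csa15g002200), a LOB domain transcription factor, had 53, 56 and 56 CPM in 8R6 roots, 14, 22 and 54 CPM in libraries of 35S::acdS roots, 22, 12 and 12 CPM in rolD::acdS roots, and 24, 33 and 80 CPM in control roots. A pyruvate decarboxylase gene (Csa12g011790), the first enzyme of ethanol fermentation, had 44, 77 and 48 CPM in 8R6 roots, 7, 19 and 72 CPM in libraries of 35S::acdS roots, 9, 9 and 11 CPM in rolD::acdS roots, and 15, 22 and 70 CPM in control roots. Control replicate 3 and 35S::acdS replicate 3 reached or passed the 8R6 level in both genes, and their own replicates 1 and 2 did not. Over the 7 genes the median log2 fold change of 8R6 was 0.41 against control, with 0 genes at an unadjusted p under 0.05, and 1.71 against rolD::acdS, with 7, against 6.79% of all genes. The 7 genes were listed for lower levels in rolD::acdS roots.

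Of the 15 oxylipin and jasmonate genes, of which most were listed for higher levels in rolD::acdS roots, 12 had lower means in 8R6 than in rolD::acdS roots at an unadjusted p under 0.05, against 6.16% of all genes, with a median of −1.12. That choice fixed their direction. ST2A (Csa20g009360), a sulfotransferase of hydroxyjasmonate, had 4, 4 and 23 CPM in 8R6 roots, 162, 45 and 72 CPM in rolD::acdS roots, and 29, 4 and 22 CPM in control roots. RAP2.6, described above, had 56, 27 and 51 CPM in rolD::acdS roots. Of 12 auxin conjugation genes, nearly all listed by the study as up-regulated in 35S::acdS roots, 7 had lower means in 8R6 than in 35S::acdS roots at an unadjusted p under 0.05, against 5.53% of all genes. Against control roots 1 had a higher mean at that p, against 2.57% of all genes. This was GH3.2 (Csa10g003770), which had 1, 1 and 0 CPM in 8R6 roots and was listed at 0 in control roots. That count was 0 without 8R6 replicate 1 or 2 and 4 without control replicate 3.

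Set against the transgenic lines and control together, 8 genes were called for 8R6 roots. Against the mean of the 3 other groups, 5 genes were called higher (0.0104%) and 3 lower (0.00624%), all at an adjusted p of 0.0490 (limma, Benjamini-Hochberg). At an unadjusted p under 0.05, 6.04% of all genes had higher and 5.7% lower means. AAP4 was higher by 1.18 ± 0.15 on the log2 scale. Csa04g007650, without annotation, had 49, 68 and 71 CPM in 8R6 roots, 20, 20 and 19 CPM in libraries of 35S::acdS roots, 22 CPM in every library of rolD::acdS roots, and 26, 25 and 43 CPM in control roots (1.37 ± 0.16). Csa11g053990, also without annotation and numbered next to the DSBA gene Csa11g054000, had 20, 26 and 25 CPM in 8R6 roots, 8, 9 and 9 CPM in libraries of 35S::acdS roots, 10, 8 and 8 CPM in rolD::acdS roots, and 11, 10 and 17 CPM in control roots (1.23 ± 0.15). In both, control replicate 3 was the highest library outside the 8R6 roots, as it was for the DSBA gene. The other 2 genes called higher were Csa00485s040, with 13, 14 and 14 CPM in 8R6 roots and 8 CPM in every control library, and Csa03g056530, with 34, 41 and 39 CPM in 8R6 roots and 22, 23 and 31 CPM in control roots. Among genes without annotation, Csa13g018320 also had one of the smallest p values against control roots for a higher mean. It had 3 CPM in every library of 8R6 roots and 1 CPM in every control library, and it was not called in the main fit. It was among the 24 genes called when only the 6 libraries were fitted, all with equal values within each group.

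The 3 genes called lower were CRK14, Csa15g071920 and Csa03g025290. Csa15g071920, without annotation, had 23, 24 and 22 CPM in 8R6 roots, 43, 48 and 54 CPM in libraries of 35S::acdS roots, 56, 56 and 55 CPM in rolD::acdS roots, and 56, 41 and 33 CPM in control roots (−1.06 ± 0.13). Csa03g025290, without annotation, was listed at 0 in 8R6 roots and at 1 or 2 CPM in every other library. The 8 genes held the 8R6 libraries outside the range of the other 9. These calls lay at the threshold. All 8 were lost with a pseudocount of 1 or with quantile normalization, and all but CRK14 and Csa03g025290 with a pseudocount of 0.1. When 1 library at a time was left out, the counts higher and lower were 0 and 0 for 35S::acdS replicates 2 and 3 and rolD::acdS replicates 2 and 3, 0 and 1 for 35S::acdS replicate 1, 0 and 3 for 8R6 replicates 2 and 3, 0 and 6 for control replicate 1, 1 and 1 for control replicate 2, 5 and 6 for rolD::acdS replicate 1, 4 and 12 for 8R6 replicate 1, and 21 and 21 for control replicate 3. Of the 8 genes, 0 were still called without 8R6 replicate 2, 8R6 replicate 3 or control replicate 2, where other genes were called. Still called were 1 (CRK14) without 35S::acdS replicate 1, 2 without control replicate 1 and 3 without 8R6 replicate 1. Without rolD::acdS replicate 1 there were 4, and without control replicate 3 all 8.

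**Figure D5:**
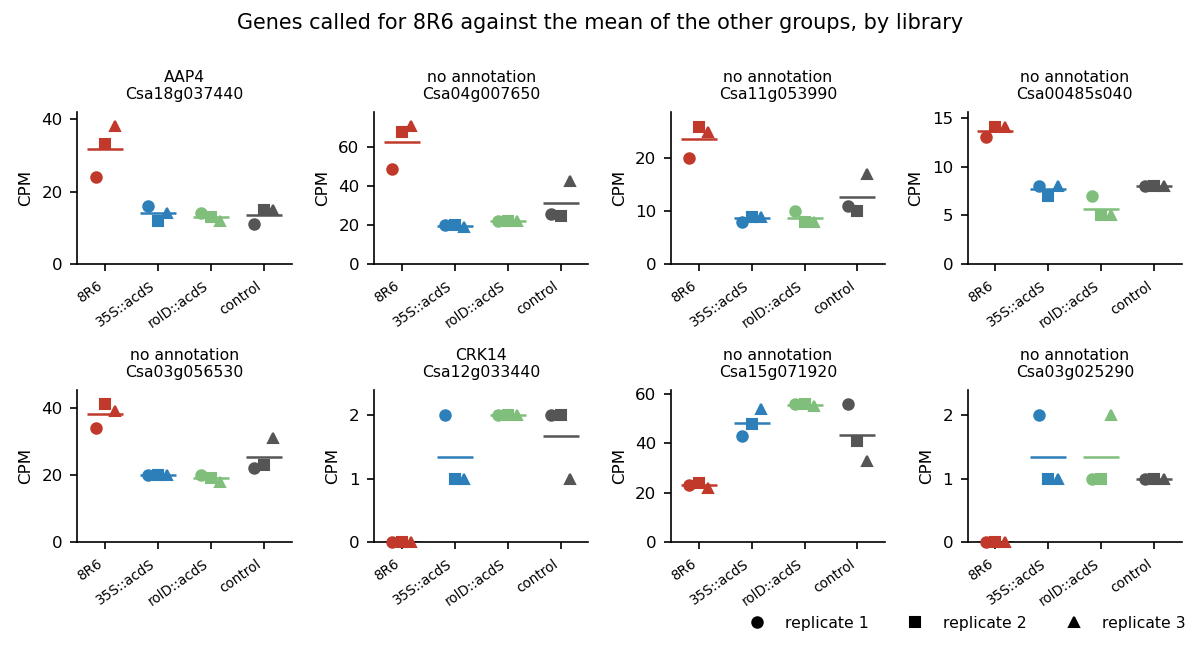
CPM by library of the 8 genes called for 8R6 against the mean of the 35S::acdS, rolD::acdS and control groups, with a line at the group mean of 3 libraries and the marker shape giving the replicate number. The 3 libraries of 8R6 roots lie on 1 side of all 9 others in every panel, as for AAP4 at 24 to 38 CPM, against 12 to 16 CPM in the lines and 11 to 15 CPM in control roots.

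Against each transgenic line alone, more genes were at an unadjusted p under 0.05 than against control roots, 5796 for 35S::acdS (12.1%) and 6232 for rolD::acdS (13%), against 2604 for control (5.41%). The marker sums moved with these comparisons. Shoot markers summed to 3 CPM in every 8R6 library, against 5, 10 and 20 CPM in 35S::acdS roots and 4, 6 and 7 CPM in rolD::acdS roots, and root markers to 83, 55 and 65 CPM in 8R6 roots, against 28, 48 and 39 CPM in 35S::acdS roots and 82, 41 and 30 CPM in rolD::acdS roots. Against 35S::acdS, 3 of the 4 shoot markers had lower means in 8R6 roots at an unadjusted p under 0.05, against 5.53% of all genes. Higher means at that p were found for 3 of the 6 root markers, against 6.52%. The study lists each shoot marker as up-regulated in a transgenic line, and the 3 SKOR homeologs as down-regulated in 35S::acdS roots. Their direction against the lines is therefore not independent evidence. The part of these markers in the differences from the lines was not tested. Called genes were 0 against 35S::acdS, and 3 higher (0.00624%) and 1 lower (0.00208%) against rolD::acdS. The 4 were Csa00485s040 (1.22 ± 0.13, adjusted p = 0.0230, limma), Csa11g007100 and Csa20g039340, which were at 1 CPM in every library of 8R6 roots and listed at 0 in rolD::acdS roots, and CRK14, which was listed at 0 in 8R6 roots and at 2 CPM in every rolD::acdS library (adjusted p = 0.0347, limma). All 4 were lost with a pseudocount of 1. When 1 library at a time was left out, these counts were 0 and 0 for 8R6 replicate 2 and rolD::acdS replicate 2, 6 and 0 for rolD::acdS replicate 3, 4 and 0 for 35S::acdS replicate 2, 3 and 4 for 35S::acdS replicate 3, 2 and 3 for 8R6 replicate 3, 5 and 2 for control replicate 2, 9 and 5 for 8R6 replicate 1, 11 and 16 for control replicate 3, 12 and 28 for control replicate 1, and 31 and 20 for rolD::acdS replicate 1. Where any genes were called in these fits, 2 to 4 of the 4 were among them. Against 35S::acdS the counts reached 10 and 12 without control replicate 3 and 7 and 12 without control replicate 1. The genes listed as up-regulated by 8R6 had a median log2 fold change of 0.79 against 35S::acdS and 1.46 against rolD::acdS. Of these 27, 8 and 20 were at an unadjusted p under 0.05. Those listed as down-regulated had −0.91 and −1.50, with 6 and 16 of the 18 at that p. The shares over all genes were 12.1% against 35S::acdS and 13% against rolD::acdS. The study chose both sets on these 8R6 libraries, so their differences from the lines are not independent evidence. These comparisons share the 8R6 libraries, so their values are given side by side only.

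Homeologs of *C. sativa* share long identical stretches, and how reads that fit several of them were counted is not given in the sources used here. The split of reads between ERF105, EF-hand, DnaJ, α-dioxygenase, PAD3, HKT1 and LBD41 homeologs is therefore uncertain.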

How the data were processed

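RNA of 3 biological replicates per group was sequenced from libraries made with stranded mRNA and total RNA kits; which kit served which sample is not given in the sources used here. Per the labels and the study's methods, the authors used Trimmomatic for trimming and STAR for alignment to the *C. sativa* genome (release 100), and named DESeq and edgeR for normalization and testing, with a preset variation; versions are not given in the sources used here. The deposited matrix is named CPM by the authors and held whole numbers for 100% of values, so it was treated as a score (rounded CPM) from which counts and depth cannot be recovered; rounding limits precision to 1 CPM. A list of column names was not used, 1453 genes were listed at 0 everywhere, and 8 listed genes were not analysed here.

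Genes with at least 1 CPM in at least 3 libraries entered a linear model in limma (version 3.58.1, R 4.3.3; lmFit, then eBayes with trend) on log2(CPM + 0.5), with 4 group means over all 12 libraries (8 residual and 2.59 prior degrees of freedom) and Benjamini-Hochberg adjustment over 48099 genes. The fold change on this scale understates that of low genes. The scripts were tested on simulated data. Python 3.11.15 with pandas 2.3.3 and matplotlib 3.10.9 made summaries and plots. Replicates were separate samples, but whether they came from separate pots is not stated in the labels. Gene names were taken from the study's annotation of 441 genes, grouped into 26 lists. Genes named in the text were those the study lists for 8R6, those called, members of the lists and, of the genes without annotation, the 2 higher and 2 lower with the smallest p among those without overlap and beyond 0.8; a few others were chosen after their values were seen. The members and lists were chosen with earlier results of these data known. The alternatives tried were 13 settings of the fit and each library left out in turn. Counts of list members without each library were added after seeing the data.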

Additional observations from a re-analysis of the deposited data

How the results depend on the processing

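Of 1746 refits of the log2 fold changes of 74 named genes against control roots, 1737 did not reverse and stayed uncalled. 0 reversed and 9 became called. Csa11g007100 and Csa20g039340, with a log2 fold change of 0 whichever library was left out, had no direction to reverse. The 45 tested genes that the study lists for 8R6 are among the 74 and were chosen on these libraries. Counts follow as genes higher and genes lower. Against control (0 and 0), they were 7 and 17 with only the 6 libraries compared, 0 and 1 with a pseudocount of 0.1, and 0 and 2 with no filter on low values or no trend in the prior variance; in these last 3 settings the genes were CRK14 and, in the last 2, the chitinase gene Csa05g006780. At an unadjusted p under 0.05 (1236 and 1368), there were 785 and 940 with a mean of at least 5 CPM. That filter tested fewer genes, without the 4039 with a mean under 2 CPM and the 11198 with 2 to 5 CPM. With library quality weights there were 3242 and 3828, and 0 genes were called. Against 35S::acdS (0 and 0), the counts were 1 and 2 with the pseudocount of 0.1, 2 and 8 with no filter, 1 and 1 with a mean of at least 5 CPM, 26 and 48 with only the libraries compared, 2 and 7 with no trend, 1 and 1 with robust empirical Bayes, and 160 and 182 with quality weights. Against rolD::acdS (3 and 1), they were 6 and 9 with the pseudocount of 0.1, 0 and 0 with a pseudocount of 1, 11 lower with no filter, 9 and 15 with a mean of at least 5 CPM, 8 and 16 with equal library totals, 6 and 5 with median-of-ratios size factors, 6 and 9 with quantile normalization, 22 and 22 with only the libraries compared, 6 lower with no trend, 10 and 17 with robust empirical Bayes, and 1031 and 1058 with quality weights. Against the mean of the other groups (5 and 3), they were 0 higher with the pseudocount of 0.1, 0 and 0 with the pseudocount of 1 or quantile normalization, 5 lower with no filter or no trend, 1 lower with a mean of at least 5 CPM, and 380 and 441 with quality weights. The cause was not tested.

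With 1 library left out at a time, the counts ranged from 0 to 1 higher and 0 to 3 lower against control, 0 to 10 and 0 to 12 against 35S::acdS, 0 to 31 and 0 to 28 against rolD::acdS, and 0 to 21 and 0 to 21 against the mean of the others. Counts at an unadjusted p under 0.05 against control ranged from 746 to 2520 higher and from 716 to 3123 lower. Same-numbered libraries of 8R6 and control roots had correlations of their deviations of −0.0909 to 0.399. The numbers were not taken as pairs, because not every pair exceeded 0.1 and no label gives the numbers a meaning, although 8 of 12 libraries were closest to their own number, a hint from the data. With the replicate number as a block, 0 genes were called against control, 1740 and 1856 were at an unadjusted p under 0.05, 0 higher and 1 lower (RAP2.6) were called against rolD::acdS, and 0 and 0 against the mean of the others.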
